A study of Mus musculus with 4 samples.

Results

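Arginine sits at a branch point of metabolism, and the 10 genes described here encode the enzymes and carriers around it, together with the enzyme that makes itaconate. Arginases split arginine into ornithine and urea, nitric oxide synthases turn it into nitric oxide and citrulline, and argininosuccinate synthase and lyase rebuild it from citrulline. Cationic amino acid transporters of the Slc7 family bring it into the cell. Itaconate is made from a tricarboxylic acid cycle intermediate by Acod1 in activated macrophages, the same cells in which mouse Arg1 and Nos2 are known as alternative fates of arginine. In liver, Arg1 is the last enzyme of the urea cycle.

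The genes are Arg1, Arg2, Nos2, Acod1, Ass1, Asl, Odc1, Slc7a1, Slc7a2 and Slc7a14, 10 of the 18193 genes that have a probe set with exactly 1 gene symbol. All 19 such probe sets were taken. The symbols were selected on the Smad4-KO against WT signal differences of these same arrays, above all those of Arg1, Acod1 and Slc7a14, so the differences of the 10 genes between genotypes are a description and not a test.

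Aortas of 6-week-old mice with a deletion of Smad4 specific to smooth muscle (Smad4-KO) were compared with aortas of their WT littermates. RNA from a pool of 3 to 5 vessels, 400 ng per array, was hybridised to each of 4 Affymetrix arrays, 2 per genotype, called replicate 1 and replicate 2. The promoter that drove the deletion is not given in the sources used here, and by this design cells other than smooth muscle keep an intact Smad4 gene. Values are probe set signals on a linear scale, and ± gives limma's standard error of a log2 difference (n = 2 arrays per genotype). So few arrays limit the precision.

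The arrays differed in more than genotype, and 1 of them carried liver transcripts. Median signals were 111 to 137. Of 3 Smad4 probe sets, 2 were lower on both Smad4-KO arrays than on both WT arrays and 1 overlapped (log2 differences -0.90, -0.40 and -0.43). The smooth muscle markers that define the tissue were bright in WT, with a summed signal of 119659 and 148176 over 8 genes, against 57803 and 67472 in Smad4-KO. The hepatocyte markers stood apart on Smad4-KO replicate 1. Their summed signal over 5 genes was 81555 there, against 1115 on Smad4-KO replicate 2 and 707 and 594 in WT. Alb, the albumin gene, named after its value was seen, read 38111 on Smad4-KO replicate 1 and 514 on replicate 2. Several genes below belong to the urea cycle of liver, so some differences and list medians are also given without Smad4-KO replicate 1. Values given over all 4 arrays alone may move without it too. The 3′ to 5′ signal ratio of the Dap labelling spike also split the arrays: it was high on WT replicate 1 (10.02) and Smad4-KO replicate 2 (14.1) and low on the other WT array (2.96) and the other Smad4-KO array (3.62). The same ratio of actin, a transcript of the sample itself, split them alike, at 11.4 and 12.8 on the first pair and 4.19 and 2.83 on the second. The part of RNA quality or labelling in the results was not tested beyond a fit with a block for these pairs, given below.

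Promoters are shown for Acod1 and Slc7a14, the genes with the largest log2 differences among the 5 members that matched RefSeq's promoter table (Acod1, Ass1, Odc1, Slc7a1 and Slc7a14). Each window holds 250 bases before and 50 bases after an annotated start in build GRCm38.p6. Capitals mark TATAAA, the core of a TATA box, and CAGAC, the core of a Smad binding element, found on either strand. The Acod1 window is chr14:103046762-103047061 on the plus strand and the Slc7a14 window is chr3:31310270-31310569 on the minus strand. The Slc7a14 gene itself is annotated up to base 31310567, so nearly all of its window lies within the annotated gene.
Acod1: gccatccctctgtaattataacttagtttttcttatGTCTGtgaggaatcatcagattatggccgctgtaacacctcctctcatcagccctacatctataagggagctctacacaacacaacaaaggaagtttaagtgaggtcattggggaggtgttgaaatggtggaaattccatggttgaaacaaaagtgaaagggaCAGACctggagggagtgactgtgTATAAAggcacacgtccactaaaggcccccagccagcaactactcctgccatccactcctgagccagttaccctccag
Slc7a14: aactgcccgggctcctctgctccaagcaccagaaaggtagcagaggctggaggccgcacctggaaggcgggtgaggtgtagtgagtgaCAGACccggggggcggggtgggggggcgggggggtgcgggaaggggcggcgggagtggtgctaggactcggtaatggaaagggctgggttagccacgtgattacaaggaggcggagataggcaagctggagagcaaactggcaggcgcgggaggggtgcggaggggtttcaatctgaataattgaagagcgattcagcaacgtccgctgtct

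The windows differ in make-up, with a GC content of 47.0% for Acod1 and 63.3% for Slc7a14. Acod1 holds TATAAA from -28 to -23, counted from the first base before the start as -1, which 13.6% of all 32851 promoter windows hold at any place. It holds CAGAC from -51 to -47 and, on the other strand, from -214 to -210. Slc7a14 holds CAGAC once, from -162 to -158, and TATAAA nowhere. The Smad core occurs in 49.6% of all windows, so its presence sets neither promoter apart. The other motifs searched on both strands were TGANTCA (AP-1), TTGCNNAA (C/EBP), TTCNNNGAA (gamma-activated site), CACGTG (E-box), the Stat6 site, the interferon-stimulated element core and the kappaB site. None of these 7 was in the Acod1 window. Slc7a14 held CACGTG from -69 to -64 (7.15% of windows) and TTGCNNAA from 31 to 38 (10.8% of windows). No 2 matches in these windows overlapped, and a match is a description of the letters alone.

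Arg1, the cytosolic arginase, was near the bottom of the range in WT and bright in Smad4-KO. Its single probe set read 21.9 and 82.7 in WT, compared with 5134 and 3059 in Smad4-KO. Both of the latter were far above both WT arrays, and the array with the liver transcripts was the higher of the pair by 1.68 times. The log2 difference was 6.54 ± 0.69 (95% interval 4.82 to 8.26). With signals under 64 raised to 64, since replicates scatter widely at low signal, Arg1 was at least 54.5-fold higher in Smad4-KO. Without Smad4-KO replicate 1 the log2 difference was 6.17, and the remaining array was at least 42.0-fold above WT. On that array the hepatocyte markers Alb and Cps1 read 514 and 82.3, against 301 and 311 (Alb) and 41.4 and 55.0 (Cps1) in WT. Apoa1, another hepatocyte marker, read 111 there, against 19.0 and 56.4 in WT, and the part of liver RNA in the Arg1 signal was not tested. In bulk samples of this kind a change in the number of cells of a type and a change in RNA per cell cannot be told apart.

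Arg2, the mitochondrial arginase, was also higher in Smad4-KO. Its brighter probe set read 25.7 and 48.2 in WT, compared with 227 and 277 in Smad4-KO. The genotypes did not overlap, and the Smad4-KO arrays differed from each other by 1.22 times. The log2 difference was 2.83 ± 0.41, and Arg2 was at least 3.92-fold higher with the floor of 64. The second probe set gave 20.4 and 39.3 in WT against 138 and 205 in Smad4-KO (log2 difference 2.57). Both probe sets thus read higher on each Smad4-KO array, and without Smad4-KO replicate 1 the brighter one had a difference of 2.97.

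Nos2, the inducible nitric oxide synthase, could not be measured above the low end of these arrays. Its single probe set read 4.64 and 10.3 in WT, compared with 8.19 and 10.8 in Smad4-KO. All 4 values lay below 64 and the genotypes overlapped, so no fold is given, and Nos2 fell below the filter on low signal. The other arginine-using enzyme of the macrophage pair thus had no readable signal where Arg1 was bright.

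Acod1, which makes itaconate from cis-aconitate, read 3.75 and 4.93 in WT, compared with 290 and 1489 in Smad4-KO. Every Smad4-KO value was far above every WT value, but the Smad4-KO arrays differed from each other by 5.14 times, the widest spread of any member among the genes bright in Smad4-KO. Here the array without the liver transcripts was the higher one. The log2 difference was 7.25 ± 0.78, and with the floor of 64 Acod1 was at least 10.3-fold higher. That bound was 4.52-fold for Smad4-KO replicate 1 alone and 23.3-fold for replicate 2 alone. Without Smad4-KO replicate 1 the log2 difference was 8.44, and without Smad4-KO replicate 2 it was 6.07.

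**Figure D1:**
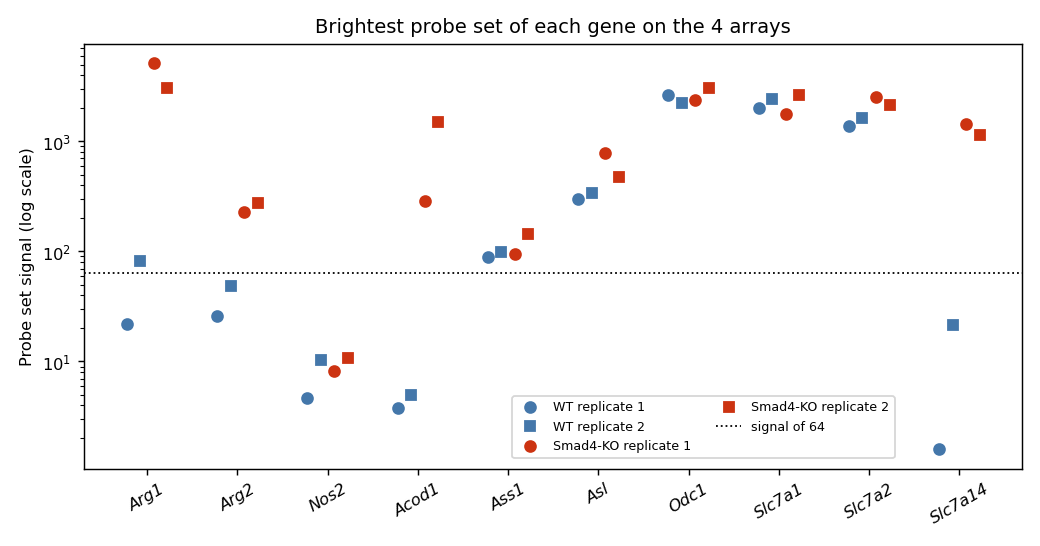
Signal of the brightest probe set of each of the 10 genes on the 4 arrays, on a log axis, with WT in blue, Smad4-KO in red, replicate 1 as circles and replicate 2 as squares; each point is 1 array and the dotted line is a signal of 64. Arg1, Arg2, Acod1 and Slc7a14 lie apart by genotype, Nos2 stays below 64 on all arrays, and Odc1 and Slc7a1 overlap.

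The enzymes that rebuild arginine from citrulline gave a mixed picture. Asl, argininosuccinate lyase, read 298 and 340 in WT, compared with 778 and 477 in Smad4-KO. Both of the latter were above WT, and the array with the liver transcripts was the higher by 1.63 times. The log2 difference was 0.94 ± 0.36, a 1.92-fold higher signal, and without Smad4-KO replicate 1 it was 0.59. Ass1, argininosuccinate synthase, had 1 probe set with a single symbol, which read 88.8 and 98.8 in WT, compared with 95.7 and 144 in Smad4-KO. These values overlapped, with a log2 difference of 0.32 ± 0.34, which was 0.62 without Smad4-KO replicate 1 and 0.03 without replicate 2. A further probe set lists Ass1 together with Gm5424 and was left out, since it cannot be assigned to 1 of these symbols. That probe set read 310 and 217 in WT, compared with 2110 and 876 in Smad4-KO. The overlap of Ass1 thus rests on its single-symbol probe set alone.

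Odc1, ornithine decarboxylase, the first enzyme of polyamine synthesis from ornithine, was bright in both genotypes. Its brightest probe set read 2623 and 2255 in WT, compared with 2405 and 3036 in Smad4-KO, with a log2 difference of 0.15 ± 0.31 (95% interval -0.63 to 0.94). The genotypes overlapped in this and both other Odc1 probe sets, whose differences were 0.11 and 0.02. The sign of the Odc1 difference turned with median centring (-0.0028) and without Smad4-KO replicate 2 (-0.02).

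Among the transporters, Slc7a1, the widespread cationic carrier CAT-1, overlapped between genotypes. Its brightest probe set read 2030 and 2447 in WT, compared with 1779 and 2626 in Smad4-KO, with a log2 difference of -0.04 ± 0.34 (95% interval -0.91 to 0.82). The other Slc7a1 probe sets disagreed in sign. One read 1065 and 1707 in WT against 664 and 1198 in Smad4-KO, a difference of -0.60 with overlap. The dimmest read 26.6 and 66.2 against 78.4 and 78.2, a difference of 0.90. No direction can be given for Slc7a1, whose sign also turned with the mean of its probe sets (0.09), without WT replicate 2 (0.09) and without Smad4-KO replicate 1 (0.24).

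Slc7a2, the cationic carrier known in mouse macrophages for feeding arginine to Arg1 and Nos2, was modestly higher in Smad4-KO. Its brightest probe set read 1377 and 1624 in WT, compared with 2523 and 2143 in Smad4-KO. The genotypes did not overlap, and the log2 difference was 0.64 ± 0.31 (95% interval -0.13 to 1.40), a 1.56-fold higher signal. Both dimmer probe sets above the low end gave 91.9 and 140 against 198 and 228, and 35.4 and 140 against 214 and 150. All 3 thus read higher on each Smad4-KO array. The fourth stayed below 25 on every array and overlapped.

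Slc7a14, a family member known from neural tissue and retina, was bright in Smad4-KO by 1 of its probe sets, and these disagreed. The brighter one read 1.59 and 21.6 in WT, compared with 1445 and 1152 in Smad4-KO. These groups were far apart, and the log2 difference was 7.78 ± 1.18, where the WT arrays alone differed by 13.6 times at signals too low to order. With the floor of 64 the probe set was at least 20.2-fold higher in Smad4-KO. The second probe set read 27.1 and 21.5 in WT, compared with 13.8 and 21.5 in Smad4-KO. It stayed below 64 on all 4 arrays and showed no separation. Averaging both probe sets brought the log2 difference to 3.65.

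**Figure D2:**
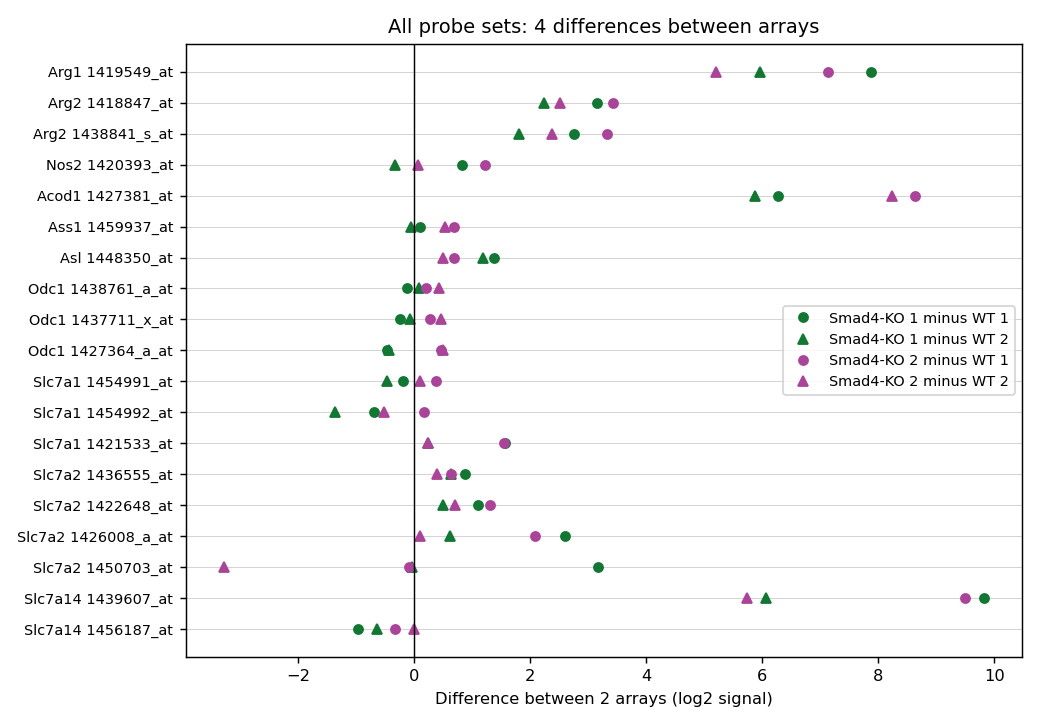
Differences in log2 signal between each Smad4-KO array and each WT array for all 19 probe sets, with green for Smad4-KO replicate 1, purple for replicate 2, circles for WT replicate 1 and triangles for WT replicate 2. Arg1 lies between 5.21 and 7.87 and Acod1 between 5.88 and 8.63 in every pair, while the second Slc7a14 probe set lies between -0.97 and 0.00.

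The differences of the bright genes were also read within each pair of opposite genotype with a like labelling ratio. For WT replicate 1 and Smad4-KO replicate 2 the log2 differences were 7.13 for Arg1, 3.43 for Arg2, 8.63 for Acod1 and 9.50 for Slc7a14. For WT replicate 2 and Smad4-KO replicate 1 they were 5.96, 2.24, 5.88 and 6.06 in the same order. Each gene was higher in Smad4-KO in both pairs, which a choice of genes with separated groups fixes in advance.

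In limma's fit over 13645 genes, 9 of the 10 genes could be tested, and Nos2 was left out for low signal. Of the 9, 4 were called higher in Smad4-KO at an adjusted p of 0.05 (Arg1, Arg2, Acod1 and Slc7a14) and 0 lower, with 5 at an unadjusted p under 0.05. Over all genes tested, 6.31% were called in either direction, 4.92% higher and 1.39% lower. All 4 called genes averaged below the filter in WT and passed it through the Smad4-KO arrays alone, so that they had to differ. Both Smad4-KO arrays lay above both WT arrays for 6 of the 9, against 25.9% of all genes tested. Nothing is read from either count, because the genes were chosen with this comparison known. Over all arrays the median log2 difference of the 9 was 0.94, and that of all genes tested -0.01. The median of the 9 was 0.62 without Smad4-KO replicate 1. Without WT replicate 1 the log2 difference of Arg2 was 2.38, and its call was lost. The 4 calls did not hold throughout, and with every probe set by itself limma kept those of Arg1 and Acod1 alone. With no filter, with a block for the labelling pairs and without WT replicate 2 limma called 0 of them (4, 5 and 4 at an unadjusted p under 0.05), and with the floor of 64 Acod1 was no longer called.

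Lists of neighbouring pathways were read from the same fit. Without WT replicate 2, with no filter and with the labelling block limma called 0 of all genes (1791, 2788 and 2658 at an unadjusted p under 0.05), so every list call below is lost there. In the urea cycle and its ornithine carriers, 0 of 4 tested genes passed in limma in either direction (0 at an unadjusted p under 0.05), and the median log2 difference was 1.48. Cps1, which makes carbamoyl phosphate for the cycle, read 41.4 and 55.0 in WT but 5079 and 82.3 in Smad4-KO (log2 difference 3.76 ± 1.82, adjusted p = 0.362 in limma). Otc, the next enzyme, likewise named after its value was seen, read 38.6 and 24.2 in WT, compared with 1444 and 11.3 in Smad4-KO. Both were bright on 1 array only, the one with the liver transcripts, where Cps1 exceeded the other Smad4-KO array by 61.7 times and Otc by 128 times. Without that array the median of the list was -0.01. The same ratio was 1.68 for Arg1, which unlike Cps1 and Otc was bright on both Smad4-KO arrays.

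**Figure D3:**
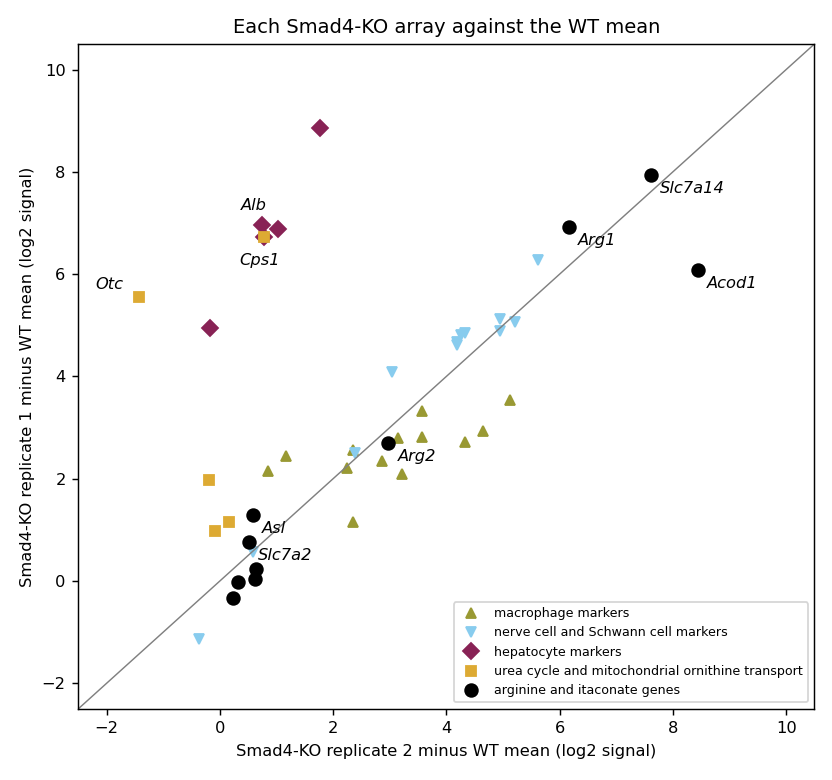
Log2 signal of Smad4-KO replicate 1 (vertical) against replicate 2 (horizontal), each minus the WT mean, for the arginine and itaconate genes and 4 lists; the line marks equal differences. Hepatocyte markers, Cps1 and Otc lie far above the line, Arg1, Arg2 and Slc7a14 lie near it, and Acod1 lies below it.

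Genes of nitric oxide synthesis and methylarginine removal included 3 that rose and 0 that fell among 11 tested (median log2 difference 0.15). The same counts held without Smad4-KO replicate 1, where the median was -0.29. Gch1, which starts the synthesis of the nitric oxide synthase cofactor tetrahydrobiopterin, read 126 and 132 in WT, compared with 1518 and 1173 in Smad4-KO. It rose 10.4-fold (3.37 ± 0.31, adjusted p = 0.0125 in limma). Ddah1, which breaks down methylarginines that inhibit nitric oxide synthases, rose 10.1-fold from 248 and 199 to 2360 and 2140 (3.34 ± 0.31, adjusted p = 0.0125 in limma). Gatm, which uses arginine to make the creatine precursor guanidinoacetate, rose 6.65-fold from 144 and 219 to 1094 and 1273 (2.73 ± 0.35, adjusted p = 0.0187 in limma). Gch1, Ddah1 and Gatm were thus higher while no synthase gene passed. The rest of the list, named after its values were seen, did not pass either. Its log2 differences were -0.29 for Ddah2, -0.22 for Gamt, 0.16 for Pts, -0.28 for Spr, 0.38 for Qdpr and 0.15 for Gchfr. Nos3, the endothelial synthase, read 1254 and 948 in WT against 744 and 524 in Smad4-KO (-0.80 ± 0.35, adjusted p = 0.300 in limma), a gene named after its value was seen, as is Nos1, the neuronal synthase (-0.86 ± 0.30, adjusted p = 0.199 in limma). Without WT replicate 1 the call of Gatm was lost (adjusted p = 0.0764), as it was without WT replicate 2 (adjusted p = 0.0708), and its adjusted p in limma spanned 0.00298 to 0.0809 under the 14 alternatives.

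Downstream of ornithine, no gene passed in either direction in limma. Of 10 tested genes of polyamine synthesis and turnover, 0 rose and 0 fell, and 0 had an unadjusted p under 0.05 in limma. Their median log2 difference was -0.18, or -0.04 without Smad4-KO replicate 1. The lowest p was that of Sat2, a spermidine acetyltransferase family member (-0.81 ± 0.34, adjusted p = 0.292 in limma). Of 5 tested genes that lead from ornithine to proline and glutamate, 0 passed (0 at an unadjusted p under 0.05) and the median was 0.13, or -0.33 without Smad4-KO replicate 1. Oat, ornithine aminotransferase, had a difference of -0.70 ± 0.44 (adjusted p = 0.509 in limma). In the list of tricarboxylic acid cycle and itaconate breakdown genes, 0 of 21 tested passed in limma (0 at an unadjusted p under 0.05). Their median was -0.55, or -0.86 without Smad4-KO replicate 1. Their summed signal was 154803 and 74320 in WT, compared with 94830 and 70202 in Smad4-KO, so WT replicate 1 stood apart from the other WT array. Sdhc, a subunit of the succinate dehydrogenase that itaconate inhibits, had a difference of -0.74 ± 0.42 (adjusted p = 0.447 in limma).

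Of 11 tested Slc7 relatives and their heavy chains, 1 rose and 0 fell (median log2 difference 0.70). Slc7a7, a light chain that exchanges cationic for neutral amino acids, rose 3.99-fold from 118 and 175 to 571 and 577 (2.00 ± 0.34, adjusted p = 0.0329 in limma). This call was lost under 8 of 14 alternatives, which include leaving out any single array (limma's adjusted p spanned 0.0156 to 0.148), and without Smad4-KO replicate 1 the list held 0 calls in limma.

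Of 17 tested regulators of Arg1, Nos2 and Acod1, 3 rose and 0 fell (median 0.64). Irf8, an interferon regulatory factor of the myeloid lineage, rose 11.0-fold from 134 and 84.5 to 1082 and 1256 (3.45 ± 0.36, adjusted p = 0.0136 in limma). Il4ra, the receptor chain for the Arg1 inducers interleukin-4 and interleukin-13, rose 4.43-fold (2.15 ± 0.40, adjusted p = 0.0432 in limma). Irf1 rose 3.09-fold (1.63 ± 0.29, adjusted p = 0.0386 in limma). The calls of Il4ra and Irf1 were lost under 11 and 9 of 14 alternatives, which include leaving out any single array (limma's adjusted p spanned 0.0151 to 0.194 for Il4ra and 0.0194 to 0.224 for Irf1), and without Smad4-KO replicate 2 the list held 1 call. Stat6, which carries the interleukin-4 signal, read 1992 and 1843 in WT, compared with 1743 and 2246 in Smad4-KO and is named after its value was seen.

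Macrophage activation genes were higher in the same arrays, with 5 of 10 tested genes rising and 0 falling (median 1.90). Without Smad4-KO replicate 1 the count was 3. Chil3, an alternative activation marker of mouse macrophages, rose at least 34.4-fold with the floor of 64 (5.15 ± 0.47, adjusted p = 0.0125 in limma). Il6 rose at least 15.9-fold (5.18 ± 0.71, adjusted p = 0.0207 in limma) and Il1b at least 17.7-fold (4.45 ± 0.58, adjusted p = 0.0194 in limma), both inflammatory cytokines. The bound was 22.6 and 52.5-fold for Chil3 and 9.91 and 25.5-fold for Il6 on Smad4-KO replicates 1 and 2 alone. The call of Il6 was also lost without WT replicate 1 (adjusted p = 0.0587 in limma, within 0.000254 to 0.0913 over 13 alternatives). Of the other alternative activation genes, named after their values were seen, Clec10a rose by 1.89 ± 0.32 (adjusted p = 0.0339 in limma, but 0.0785 without Smad4-KO replicate 1), while Retnla read 3440 and 1443 in WT, compared with 2067 and 855 in Smad4-KO (-0.74 ± 0.61, adjusted p = 0.643 in limma). Mgl2 and Mrc1 did not pass either (adjusted p = 0.862 and 0.169 in limma).

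Markers of other cell types moved with the bright members. Of 13 macrophage markers, 9 rose and 0 fell. Their median log2 difference was 2.65, or 3.15 without Smad4-KO replicate 1. Their summed signals were 18357 and 11973 in WT, compared with 71664 and 108063 in Smad4-KO. Among them Aif1, a calcium-binding protein of macrophages, rose by 4.34 ± 0.76 (adjusted p = 0.0359 in limma), and Fcgr1, an antibody receptor, by 3.79 ± 0.65 (adjusted p = 0.0352 in limma) on the log2 scale. Tyrobp, a signalling adaptor of myeloid cells, rose by 3.52 ± 0.70 (adjusted p = 0.0498 in limma). Of 14 alternatives, the call was lost under 10 for Tyrobp, 6 for Aif1 and 7 for Fcgr1, the floor of 64 among them for each. Omitting WT replicate 1 ended those of Tyrobp and Fcgr1, and omitting Smad4-KO replicate 2 those of Tyrobp and Aif1 (limma's adjusted p reached 0.199, 0.131 and 0.126 for Tyrobp, Aif1 and Fcgr1). Of 4 tested neutrophil markers, all 4 rose, with or without Smad4-KO replicate 1 (median 4.41; summed signals 1385 and 426 in WT, 13516 and 18061 in Smad4-KO). Of 12 nerve and Schwann cell markers, 10 rose and 0 fell, with or without that array (median 4.48; summed signals 2642 and 2293 in WT, 41987 and 31332 in Smad4-KO). These were the 10 nerve cell markers, whereas the 2 Schwann cell markers measured, named after their values were seen, did not pass. Sox10 read 120 and 150 in WT, compared with 61.3 and 104 in Smad4-KO (-0.74 ± 0.38, adjusted p = 0.395 in limma), and S100b had a difference of 0.58 ± 0.35 (adjusted p = 0.493 in limma). Csf3r, the receptor for the neutrophil growth factor G-CSF, rose by 4.46 and Th, tyrosine hydroxylase, by 5.03 on the log2 scale (adjusted p = 0.0125 for each in limma). S100a8 and S100a9, which form the neutrophil protein calprotectin, rose by 4.36 and 4.70 (adjusted p = 0.0300 and 0.0228 in limma), and the call of S100a8 was also lost without Smad4-KO replicate 2. Tubb3, a neuronal tubulin, and Snap25 rose by 5.14 and 5.95 (adjusted p = 0.0125 for each in limma). Macrophage, neutrophil and smooth muscle sums were higher on Smad4-KO replicate 2, as Acod1 and Arg2 were. Nerve and Schwann cell, endothelial, adipocyte and hepatocyte sums were higher on replicate 1, as Arg1 and Slc7a14 were. Some single markers went against the sum of their list. Replicate 1 read 2.45 times replicate 2 for Mrc1 (macrophage) and 0.90 times for Tubb3 (nerve cell). The order of 2 arrays cannot tie a gene to a cell type. No marker of these lists was at 0 on any array, and their part in the differences of the 10 genes was not tested.

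Markers of the vessel wall, fat and liver were read in the same way. Of 8 smooth muscle markers 3 fell (median -2.08, or -1.61 without Smad4-KO replicate 1 and -2.21 without replicate 2). Cnn1, a calponin that binds actin, fell 5.97-fold (-2.58 ± 0.29, adjusted p = 0.0161 in limma). Smtn and Lmod1, which bind or organise actin in smooth muscle, fell by 2.34 and 2.55 on the log2 scale (adjusted p = 0.0182 and 0.0206 in limma). The calls of Cnn1, Smtn and Lmod1 were also lost without WT replicate 1 and with every probe set by itself (limma's adjusted p reached 0.0930, 0.0980 and 0.0906). Of 8 endothelial markers 0 passed in limma (1 at an unadjusted p under 0.05; median -0.09, or -0.46 without Smad4-KO replicate 1), and Kdr, the main vascular endothelial growth factor receptor, had a difference of 1.40 ± 0.38 (adjusted p = 0.113 in limma). Of 6 adipocyte markers 0 passed (1 at an unadjusted p under 0.05; median 0.03), although their summed signal was 66873 on WT replicate 1, 29791 on WT replicate 2, 61823 on Smad4-KO replicate 1 and 30956 on Smad4-KO replicate 2. Ucp1, the uncoupling protein of brown fat, had a difference of -3.84 ± 1.42 (adjusted p = 0.222 in limma), and passed in limma with the replicate block alone among 14 alternatives (adjusted p = 0.000572). Without Smad4-KO replicate 1 the median of the list was -0.84. Lep, the leptin gene, named after its value was seen, then had a log2 difference of -4.04. Lep read 292 and 99.7 in WT, compared with 237 and 10.4 on Smad4-KO replicates 1 and 2. The last value lay under the floor of 64, and with that floor Smad4-KO replicate 2 was at least 2.67-fold below WT. Of 5 hepatocyte markers 0 passed in limma over all arrays (0 at an unadjusted p under 0.05). Their median log2 difference was 3.85, or 0.79 without Smad4-KO replicate 1 and 6.88 without replicate 2. Apoa1, a lipoprotein made by liver, read 15141 on Smad4-KO replicate 1 and 111 on replicate 2 (5.31 ± 2.21, adjusted p = 0.280 in limma).

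**Figure D4:**
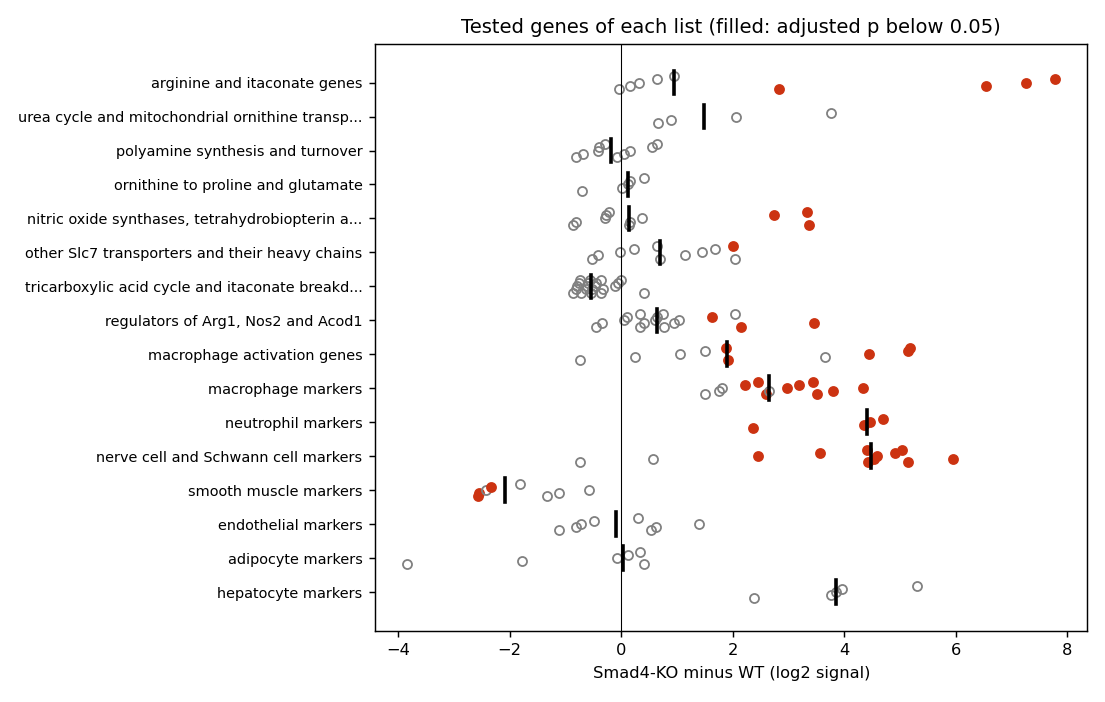
Log2 difference (Smad4-KO minus WT) of each tested gene in each list; filled points have an adjusted p below 0.05 in limma over all genes, open points do not, and the bar is the list's median. The arginine and itaconate genes split into 4 filled points between 2.83 and 7.78 and 5 open points between -0.04 and 0.94.

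The genes whose signals over the 4 arrays were most like those of the members were found by Euclidean distance between log2 values, with signals under 64 raised to 64. For Arg1 these were Cadps (distance 1.02), a protein of dense-core vesicle release, Snap25 (1.05), a protein of synaptic vesicle release, and Th (1.08), which makes the precursor of noradrenaline. Snap25 read 68.0 and 132 in WT, compared with 7332 and 4675 in Smad4-KO. For Slc7a14 they were Ccr1 (0.17), a chemokine receptor of white blood cells, Chrna3 (0.20), an acetylcholine receptor subunit of autonomic ganglia, and Snap91 (0.31), a synaptic endocytosis protein. For Acod1 they were Dhx58 (0.59), an interferon-induced RNA sensor, Calhm6 (0.62) and Acta1 (0.65), the skeletal muscle actin, each of which was brighter on Smad4-KO replicate 2. The gene most like Slc7a2 was Slc3a2 (0.05), the heavy chain of several Slc7 light chains, at 1373 and 1613 in WT, compared with 2563 and 2085 in Smad4-KO. Pdia4 (0.14) and Lpgat1 (0.24) came next. Without the floor the nearest genes were others for 3 of the 4 members. For Arg1 they were Clec4d (1.47), a lectin of myeloid cells, Cadps (1.64) and Scg2 (1.83), a secretogranin of dense-core vesicles. For Slc7a14 they were Cyp4f18 (2.87), Trem2 (2.99), a receptor of macrophages and microglia, and Cxcl5 (3.04), a neutrophil-attracting chemokine. For Acod1 they were Slfn1 (1.40), Trem2 (2.06) and Cyp4f18 (2.53), and for Slc7a2 the same 3 as before. With 4 arrays, likeness of this kind describes these libraries only.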

How the data were processed

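Expression in mouse aorta was measured on 4 Affymetrix arrays with 45101 probe sets each. The deposited numbers are linear intensity, 1 value per probe set and array. Expression Console and RMA are named, with no version, per the submitters' processing notes. The numbers look otherwise: they are unlogged, and after trimming 2% at each end their mean is 500.003 or 500.002 on every array, as MAS5 scaling leaves it. Neither detection calls nor a genome build were available to this work.

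Intensities were taken to log2. Outside 64 control probe sets, 34945 had 1 symbol, 932 had several and 9160 had none, and only the first kind entered. For each gene the probe set of highest mean was kept, and genes under the 25th percentile of mean log2 intensity (5.64) were dropped. The genotype difference came from limma 3.58.1 in R 4.3.3 (lmFit, then eBayes), two-sided, with Benjamini-Hochberg adjustment over 13645 genes and a threshold of 0.05. Intervals are 95% intervals of that model. Folds written "at least" raise signals under 64 to 64 and allow for no spread between arrays. The p-values measure the spread between pools. The procedure was tested on simulated data.

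The members and all gene lists were chosen with earlier results of these data known. From each list, up to 3 genes past the threshold per direction were named, or else the gene of lowest p. For likeness, the 3 nearest genes with an ordinary symbol were named. Promoters come from RefSeq (GRCm38.p6), matched by gene identifier for 5 of the 10 genes. Python 3.11.15 was used for tables and plots.

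Alternatives comprised the replicate block, a block for the labelling pairs, quantile normalization, median centring, the floor of 64, no filter, the 50th percentile as filter, averaging probe sets, testing all probe sets singly, trend and robust in eBayes, and omitting any 1 array. In that last case the lone array of a genotype is assumed to vary like the other genotype's pair.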

Additional observations from a re-analysis of the deposited data

Results flagged for a closer look

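The probe set that lists both Gm5424 and Ass1 was outside the comparisons, since it has several symbols, and its signal was above the WT level on both Smad4-KO arrays. It read 310 and 217 in WT, compared with 2110 and 876 in Smad4-KO, with a geometric mean of 1360 in Smad4-KO against 259 in WT. On the array with the liver transcripts it was 2.41 times the other Smad4-KO array, which was itself 3.38-fold above the WT mean. The part of the liver transcripts was not tested, and the signal is not taken as a value of Ass1.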

How the results depend on the processing

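The replicate numbers are not said to mark a litter or a day. The deviations of same-numbered arrays from their genotype means correlated at -0.01 across genes, which cannot show whether these arrays shared a day or dissection. Some list sums went by number, as those of adipocyte markers did, and others did not, as those of hepatocyte markers. A link between same-numbered arrays was not tested further. With the replicate block limma called 1321 rather than 861 genes, and 4 of the 10 members as before. No genes were called (0, and 0 members) with the labelling pair block or with no filter, where 2658 and 2788 genes had an unadjusted p under 0.05 in limma. The count of all genes was 518 with the mean of probe sets and 205 with every probe set by itself, which left 2 members called (Arg1 and Acod1). It ranged from 0 (without WT replicate 2, with 1791 at an unadjusted p under 0.05) to 808 when each array was left out, with 270 without WT replicate 1, and the members called from 0 to 4. The filter at the 50th percentile, which takes dimmer genes out of the test, left 1 member called (Arg1) and 2 at an unadjusted p under 0.05 in limma. With median centring the median gene stood at -0.16 rather than -0.01.

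Over the 14 alternatives the log2 difference of Arg1 lay between 5.58 (without WT replicate 1) and 7.50 (without WT replicate 2), that of Acod1 between 3.36 and 8.44, that of Slc7a14 between 3.65 and 9.67 and that of Arg2 between 1.97 and 3.29. The lowest values of Acod1 and Arg2 came from the floor of 64. Signs turned for Nos2, Odc1 and Slc7a1 alone among the 10 members, for Nos2 without WT replicate 1 (-0.13). Low WT signal limits every fold of the 4 bright genes.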
